A study of Homo sapiens with 4 samples.

Results

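The proteasome genes described here are the subunits, activators, inhibitor and assembly chaperones whose symbols run PSMA, PSMB, PSMC, PSMD, PSME, PSMF or PSMG plus digits. They were taken wherever a probe set was annotated to such a symbol alone, with the highest mean over the 4 arrays standing for each symbol. The rule found 81 probe sets for 42 genes, out of 19775 genes with a probe set of their own, and 41 of the 42 passed the filter on low levels that left 16252 genes for the tests. The exception was PSMA8, an alpha subunit known from testis, at 4.35 and 4.26 on the LPS arrays and 4.33 and 4.15 on the untreated arrays against a filter level of 6.06. PSMA6, PSMB11, PSMC5, PSMD7, PSMD13 and PSME2 were not analysed here.

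The cells were MKN45, an established human line from a gastric adenocarcinoma. Those in the LPS group had medium with 10 µg/ml lipopolysaccharide of Helicobacter pylori, the stomach bacterium, and those in the untreated group had fresh medium. RNA was taken from both groups after 8 h, with 2 arrays in each group, and the series text speaks of 2 independent experiments without saying which arrays came from which. All p-values therefore measure the spread between these arrays. Levels are on the log2 scale, and differences are LPS minus untreated unless another unit is given.

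The proteasome degrades proteins tagged with ubiquitin. Its barrel-shaped core has outer alpha rings, which form the gate, and inner beta rings, which hold the proteases, and a regulatory particle of ATPase and non-ATPase subunits recognises, unfolds and feeds in the substrate. In NF-kB signalling the proteasome removes the inhibitor IkB, and under interferon gamma or tumour necrosis factor many cells replace the constitutive catalytic beta subunits by the immunoproteasome subunits PSMB8, PSMB9 and PSMB10, which favour peptides for MHC class I.

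Promoter sequence was looked at because proteasome genes are known to share regulatory elements. A RefSeq promoter window of assembly GRCh38.p14 was matched for 36 of the 42 genes, each of 300 bases, with 250 before and 50 after the start. The core of the antioxidant response element, bound by NFE2L1 and NFE2L2, was searched as TGACNNNGC on both strands. It occurred in 12 of the 36 windows (33.3%), against 15% of the 12833 windows matched for all genes tested. CCAAT, the box bound by NF-Y, occurred on either strand in 16 of 36 (44.4%), against 35.9% of all. An interferon response element, searched on both strands as GAAA, any 2 bases and GAAA again, occurred in 5 of 36 (13.9%), against 2.77% of all, and the NF-kB consensus in 1 of 36 (2.78%), that of PSMA8, against 12.8% of all. PSMA8, which lay under the level filter, counts among the 36 windows but not among the genes tested. These matches describe letters in a window and no site of binding, and a promoter without a match may hold an element elsewhere. Below, stretches of 60 bases before the start are read 5′ to 3′ along the gene's strand, with the match in capitals. PSMG2 and PSMD3 are shown as members with a low and a high difference, PSMB3 and PSME1 as members of other roles, PSMB10 and PSMB4 for the interferon element, and PSME3, the member with the highest difference, for its CCAAT box in reverse.
PSMG2, chr18:12658674-12658733, plus strand: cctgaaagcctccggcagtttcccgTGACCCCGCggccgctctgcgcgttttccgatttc
PSMD3, chr17:39980745-39980804, plus strand: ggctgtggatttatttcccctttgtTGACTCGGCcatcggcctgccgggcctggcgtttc
PSMB3, chr17:38752612-38752671, plus strand: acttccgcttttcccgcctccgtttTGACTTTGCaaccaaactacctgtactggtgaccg
PSME1, chr14:24136083-24136142, plus strand: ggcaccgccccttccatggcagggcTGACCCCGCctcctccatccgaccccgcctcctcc
PSMB10, chr16:67936851-67936910, minus strand: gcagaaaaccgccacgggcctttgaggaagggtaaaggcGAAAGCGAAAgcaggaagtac
PSMB4, chr1:151399480-151399539, plus strand: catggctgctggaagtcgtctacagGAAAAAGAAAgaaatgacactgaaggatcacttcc
PSME3, chr17:42833337-42833396, plus strand: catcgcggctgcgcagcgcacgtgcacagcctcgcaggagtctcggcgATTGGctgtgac

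The arrays were alike over all probe sets, with medians of 7.034 and 7.030 on the LPS arrays and 7.004 and 7.032 on the untreated arrays. The epithelial markers CDH1, EPCAM, KRT8, KRT18, KRT19, CLDN4, CEACAM5 and MET were all above the filter, with mean levels of 13.37 and 13.36 on the LPS arrays and 13.33 and 13.38 on the untreated arrays. Of 6 leukocyte markers with a probe set, 4 passed the filter (CD3E, CD53, CORO1A and LAPTM5, mean levels of 7.98 and 8.01 on the LPS arrays and 7.93 and 7.96 on the untreated arrays), while PTPRC and CD14 lay under it. Of 8 fibroblast and endothelial markers with a probe set, 7 passed (mean levels of 7.51 and 7.44 on the LPS arrays and 7.39 and 7.48 on the untreated arrays), and CDH5 lay under it. Among these markers CD53, a leukocyte membrane protein, had 8.56 and 8.87 on the LPS arrays against 8.39 and 8.38 on the untreated arrays (difference 0.33, unadjusted p = 0.0216, limma adjusted p = 0.364), and its part in the differences of the proteasome genes was not tested. The 24 poly-A spike-in probe sets, bacterial transcripts added before labelling, averaged 7.98 and 7.92 on the LPS arrays against 8.60 and 8.25 on the untreated arrays. Their part in the differences below was not tested.

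The comparison asked which transcripts respond to the bacterial lipopolysaccharide. None of the 41 proteasome genes passed an adjusted p under 0.05 in limma over the 16252 genes, in either direction. Over all genes 4 passed (0.0246%), the chemokines CCL20, CXCL1, CXCL8 and CXCL3, which rose 7.61-, 3.98-, 3.31- and 2.02-fold, and 0% of genes passed as lower. The smallest adjusted p among the proteasome genes was 0.327, that of PSME3. At an unadjusted p under 0.05 they gave 2 higher, PSME3 and PSMC4 (background 3.72% of all genes), and 1 lower, PSMG2 (background 7.91%), which is 7.32% of the 41 in either direction against 11.6% of all genes. These counts changed with 1 array left out, in fits where the share over all genes was not taken. The members' median difference in those fits ran from -0.055 without untreated replicate 2 to 0.00077 without untreated replicate 1. In RNA of whole cultures, fewer cells with a transcript and less of it per cell cannot be told apart.

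**Figure D1:**
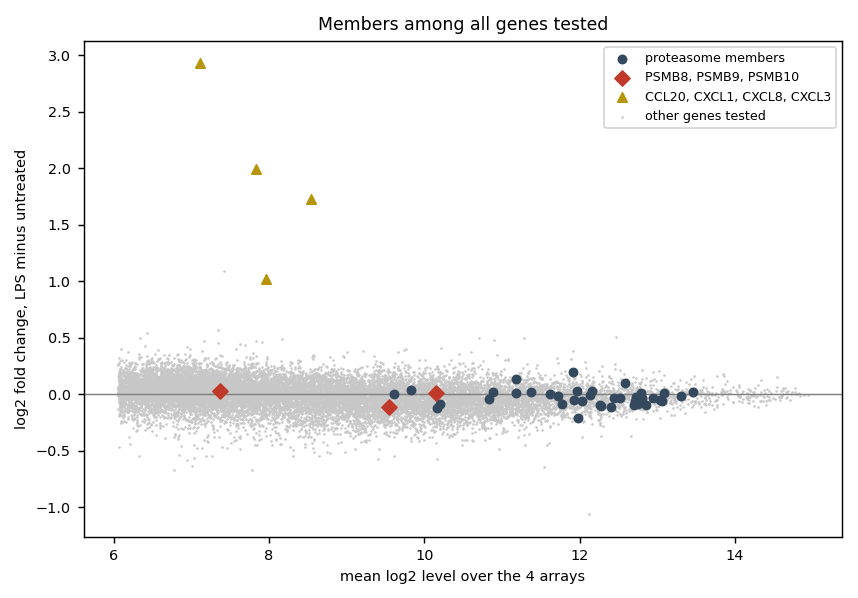
Log2 fold change of LPS-treated minus untreated cells (vertical) against the mean log2 level over the 4 arrays (horizontal) for the 41 proteasome genes (dark circles), the immunoproteasome subunits among them (red diamonds), the 4 chemokines past the threshold (triangles) and all other genes tested (grey). The proteasome genes lie between -0.21 and 0.20, while the chemokines lie between 1.02 and 2.93.

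The differences of the proteasome genes were small as well as uncalled. They ran from -0.21 to 0.20 with a median of -0.03, against a median of -0.0047 over all genes tested. The 95% interval lay between a 25% rise and the equal fold fall for 37 of the 41 (90.2%), against 68.5% of all genes and 88.6% of the 1361 other genes between the quartiles of the proteasome genes' levels, and none of the 41 intervals reached beyond 1.28-fold in either direction. The 4 whose interval went further were PSME3, PSMG2, PSMD3 and PSMF1. Above 0 lay 15 of the 41 (48.2% of all genes) and below 0 lay 26 (51.8% of all genes). Both LPS arrays were below both untreated arrays for 13 (31.7%, background 25.7%), and above them for 2 (4.88%, background 19.7%). Among those 1361 genes of like level the shares were 38.4% and 14.9%.

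**Figure D2:**
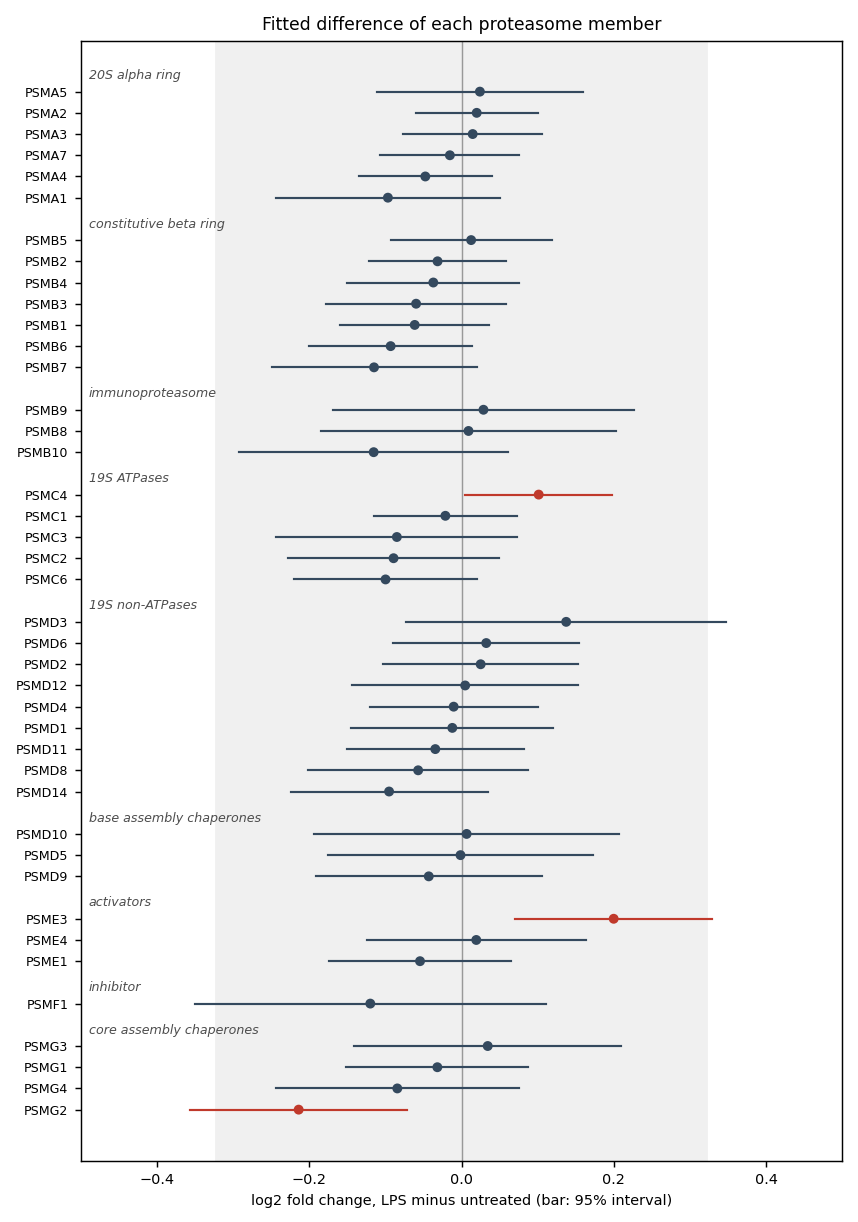
Log2 fold change, LPS minus untreated, of each of the 41 proteasome genes by role, with its 95% interval as a bar; the grey band runs from a 25% rise to the equal fold fall. The intervals of PSMC4, PSME3 and PSMG2 (red, unadjusted p under 0.05) leave out 0, and 37 of the 41 intervals lie inside the band.

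That lean below 0 was shared by other genes at the same level and moved with 1 array. The 1361 genes of like level (11.19 to 12.73) had a median of -0.04, with 65.6% below 0, and 15% of them were lower at an unadjusted p under 0.05. Untreated replicate 1, the array with the highest spike-in mean, gave the highest of the 4 values for 25 of the 41 proteasome genes (61.0%), for 52.5% of those genes of like level and for 34.8% of all genes. The median LPS minus untreated difference was -0.06 for LPS replicate 1 and -0.05 for LPS replicate 2 when set against untreated replicate 1, and -0.0049 and -0.0022 when set against untreated replicate 2. Without untreated replicate 1 the members' median was 0.00077, with 22 above 0 and 19 below, against -0.0056 over all genes. The members' median was also above 0, at 0.0051 and 0.0050, after quantile normalization and cyclic loess. The median over all genes there was 0.013 and 0.010. After median centring the members' median stayed below 0 (-0.046, with 11 above 0 and 30 below), against -0.019 over all genes. Without untreated replicate 2 the members' median was -0.055, with 9 above 0 and 32 below, against -0.0067 over all genes. The shares of all genes above and below 0 were not taken in these fits.

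**Figure D3:**
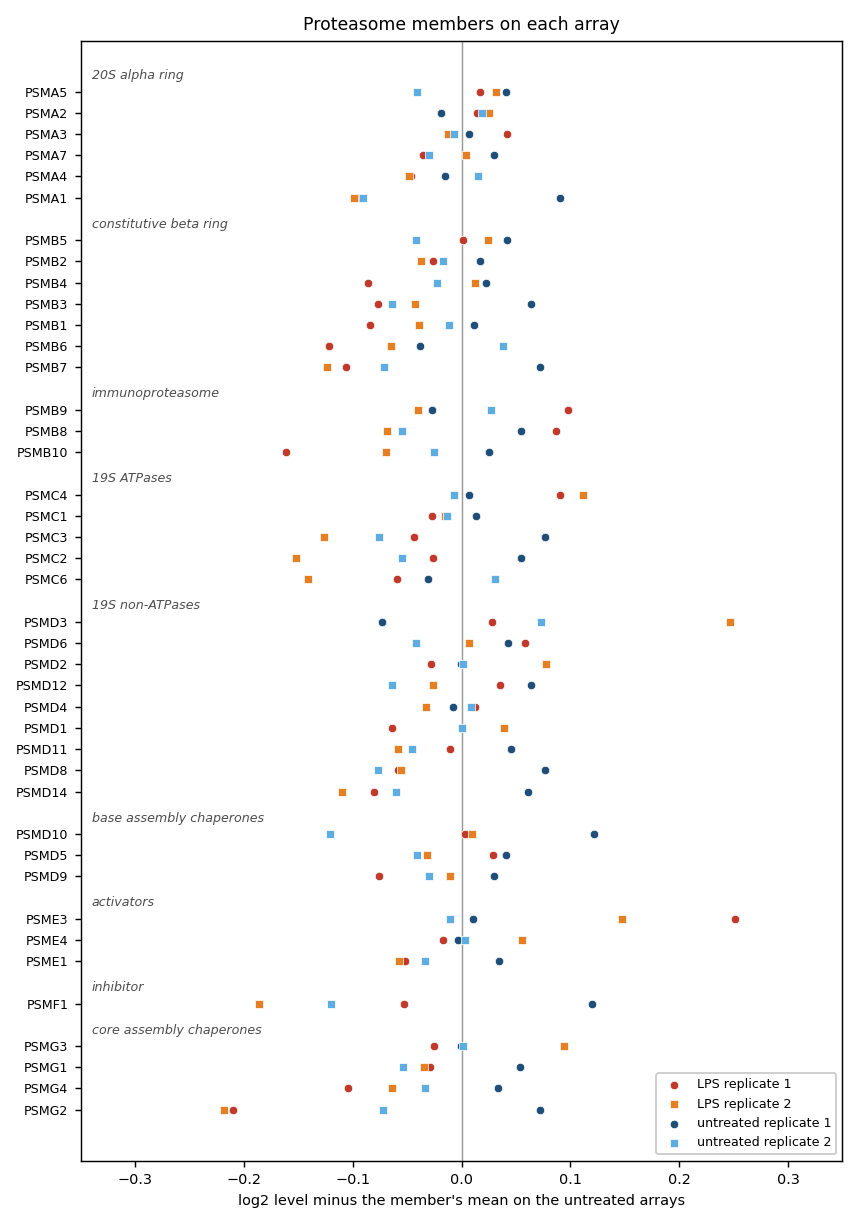
Log2 level of each of the 41 proteasome genes on each array, as the distance from that gene's mean on the untreated arrays (horizontal), by role; LPS arrays are red and orange, untreated arrays dark and light blue. For 25 of the 41 the value of untreated replicate 1 (dark blue circle) is the highest, and PSME3 and PSMC4 have both LPS arrays to the right of both untreated arrays.

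The immunoproteasome subunits, which the rule sets apart, did not pass. PSMB8, which takes the place of the chymotrypsin-like PSMB5, had levels of 10.23 and 10.08 on the LPS arrays against 10.20 and 10.09 on the untreated arrays. The LPS arrays lay on either side of the untreated ones, and the difference was 0.01 (95% interval -0.18 to 0.20, limma adjusted p = 0.979). PSMB9, which replaces the caspase-like PSMB6, had 7.45 and 7.31 on the LPS arrays against 7.33 and 7.38 on the untreated arrays. Here too the groups overlapped (difference 0.03, interval -0.17 to 0.23, limma adjusted p = 0.922). PSMB10, which replaces the trypsin-like PSMB7 and whose promoter holds the interferon element printed above, had 9.44 and 9.53 on the LPS arrays against 9.62 and 9.57 on the untreated arrays. Both LPS arrays lay under both untreated arrays, by less than the test resolves (difference -0.12, interval -0.29 to 0.06, limma adjusted p = 0.566). The upper bounds of these intervals correspond to 1.15-fold for PSMB8, 1.17-fold for PSMB9 and 1.04-fold for PSMB10. PSMB9 had the lowest mean level of the proteasome genes tested, 7.37 against a median of 12.14. That is under the mean levels of the leukocyte markers. Its signal over background cannot be judged, so its bound holds for the probe set and may not hold for the transcript.

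The constitutive catalytic subunits that these replace were near their untreated levels too. PSMB5 had 12.79 and 12.81 on the LPS arrays against 12.83 and 12.74 on the untreated arrays, with both LPS values between the untreated ones (difference 0.01, interval -0.09 to 0.12). PSMB6 had 12.78 and 12.84 on the LPS arrays against 12.86 and 12.94 on the untreated arrays. PSMB7 had 12.36 and 12.34 on the LPS arrays against 12.54 and 12.39 on the untreated arrays. In both genes the LPS arrays were the lower ones, with differences of -0.09 for PSMB6 and -0.12 for PSMB7 and limma adjusted p-values of 0.461 and 0.467. Without untreated replicate 1 the difference was -0.13 for PSMB6 and -0.04 for PSMB7. Without untreated replicate 2 it was -0.05 for PSMB6 and -0.19 for PSMB7. The other probe set of PSMB7 differed by 0.09, and the mean of its probe sets by -0.014. The structural beta subunits PSMB1, PSMB2, PSMB3 and PSMB4 differed by -0.06 to -0.03. In this ring 4 of 7 genes had both LPS arrays below both untreated arrays, and 0 of 7 had them above. Over all genes the shares were 25.7% and 19.7%, and over other genes at levels of 11.19 to 12.73 they were 38.4% and 14.9%. PSMB2, PSMB3, PSMB4, PSMB5 and PSMB6 lay above that range of levels.

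The alpha ring showed the same narrow range. Its 6 measured genes PSMA1, PSMA2, PSMA3, PSMA4, PSMA5 and PSMA7 differed by -0.10 to 0.02, with 3 above and 3 below 0. The highest was PSMA5, with 11.38 and 11.40 on the LPS arrays against 11.41 and 11.32 on the untreated arrays (difference 0.02, interval -0.11 to 0.16). The lowest was PSMA1, with 12.66 on both LPS arrays against 12.85 and 12.67 on the untreated arrays (difference -0.10, interval -0.24 to 0.05). For PSMA1 the distance came from untreated replicate 1 alone: with that array left out the difference was -0.0061.

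The ATPase ring of the regulatory particle, which unfolds substrates and opens the gate, had 5 measured genes. PSMC4 had 12.62 and 12.64 on the LPS arrays against 12.54 and 12.52 on the untreated arrays. The groups did not overlap, and the difference was 0.10 (interval 0.0046 to 0.20, unadjusted p = 0.0424, limma adjusted p = 0.415). PSMC4 has 1 probe set, and its difference stayed at 0.09 to 0.11 with any 1 array left out. Its unadjusted p in limma moved with the processing. It was 0.116 after median centring and 0.182 without the variance trend, but 0.0129 after quantile normalization and 0.0108 after cyclic loess. The partner ATPases PSMC1, PSMC2, PSMC3 and PSMC6 were all below 0, at -0.10 to -0.02. The lowest of them was PSMC6, with 12.27 and 12.19 on the LPS arrays against 12.30 and 12.36 on the untreated arrays (limma adjusted p = 0.477).

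Among the 9 non-ATPase subunits, 4 were above 0 and 5 below. PSMD3, a subunit of the lid, had 11.14 and 11.36 on the LPS arrays against 11.04 and 11.19 on the untreated arrays. Only LPS replicate 2 stood above both untreated arrays, and the difference of 0.14 (interval -0.07 to 0.35, limma adjusted p = 0.567) was 0.03 without that array and 0.25 without LPS replicate 1. PSMD14, the deubiquitinase of the lid that releases ubiquitin chains, had 12.23 and 12.20 on the LPS arrays against 12.37 and 12.25 on the untreated arrays (difference -0.10, limma adjusted p = 0.52). The PSMD14 difference was -0.03 without untreated replicate 1 and -0.16 without untreated replicate 2. The scaffold subunits PSMD1 and PSMD2 and the ubiquitin receptor PSMD4 differed by -0.01, 0.02 and -0.01. The remaining PSMD6, PSMD8, PSMD11 and PSMD12 lay between -0.06 and 0.03. The chaperones that guide assembly of the ATPase base, PSMD5, PSMD9 and PSMD10, differed by -0.04 to 0.0065. PSMD9 was the lowest of them, with 10.78 and 10.84 on the LPS arrays against 10.88 and 10.82 on the untreated arrays. PSMD10, also called gankyrin, was the highest, with 11.19 on both LPS arrays against 11.31 and 11.06 on the untreated arrays.

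The activators, which open the core without the ATPases, held the gene with the highest difference. PSME3, the nuclear activator PA28 gamma, which promotes ubiquitin-independent degradation of small regulatory proteins, had 12.07 and 11.97 on the LPS arrays against 11.83 and 11.81 on the untreated arrays. Both LPS arrays were above both untreated arrays, a 1.15-fold difference (log2 0.20, interval 0.07 to 0.33, unadjusted p = 0.00817, limma adjusted p = 0.327). Its other 3 probe sets differed by 0.15, 0.20 and 0.23. The first had overlapping groups, with 10.89 and 10.71 on the LPS arrays against 10.76 and 10.56 on the untreated arrays. The second had 10.50 and 10.36 on the LPS arrays against 10.33 and 10.12 on the untreated arrays. The last had 9.57 and 9.62 on the LPS arrays against 9.26 and 9.48 on the untreated arrays. All 4 are of the types that can bind other transcripts (_x_at or _s_at) and measure the same RNA extracts, so they are not separate replicates. PSME1, the interferon-inducible activator PA28 alpha, had 11.91 and 11.90 on the LPS arrays against 11.99 and 11.92 on the untreated arrays (difference -0.05, interval -0.17 to 0.06), and PSME4, the large activator PA200, differed by 0.02.

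PSMF1, the proteasome inhibitor PI31, gave no single direction. It had 10.17 and 10.04 on the LPS arrays against 10.34 and 10.10 on the untreated arrays, a difference of -0.12 with overlapping groups (interval -0.35 to 0.11, limma adjusted p = 0.649). Its other 3 probe sets differed by 0.09, 0.17 and 0.08.

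Among the chaperones that assemble the core, PSMG2 had the lowest difference of all 41 genes. PSMG2, which pairs with PSMG1 to build the alpha ring, had 11.88 and 11.87 on the LPS arrays against 12.16 and 12.01 on the untreated arrays. Both LPS arrays were below both untreated arrays, and the difference was -0.21 (interval -0.36 to -0.07, unadjusted p = 0.00922, limma adjusted p = 0.331), or -0.14 without untreated replicate 1. Its partner PSMG1 had 12.43 on both LPS arrays against 12.52 and 12.41 on the untreated arrays, a difference of -0.03 with overlapping groups. The other pair, PSMG3 and PSMG4, differed by 0.03 and -0.08. PSMG3 had 9.78 and 9.90 on the LPS arrays against 9.81 on both untreated arrays.

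Probe sets of the same gene often had differences of opposite sign, some of them very small, as in PSMD12 (0.0046 against -0.020). Whether the probe sets of a gene differ from each other was not tested. Of 32 other probe sets above the filter, in 19 genes, 16 had the sign of the gene's representative probe set and 16 the opposite. Besides PSMF1, wide contrasts, chosen after the values were seen, were in PSMB2, PSMA3 and PSMD4. One PSMB2 probe set had 10.76 and 10.75 on the LPS arrays against 10.48 and 10.54 on the untreated arrays (difference 0.25, unadjusted p = 0.00417, adjusted p = 0.323 in the limma fit with no level filter), while the representative one differed by -0.03 with both LPS arrays below. A faint PSMA3 probe set differed by -0.28 against 0.01, and a faint PSMD4 probe set by -0.26 against -0.01, with adjusted p-values of 0.46 and 0.445 in that limma fit. The PSMA3 difference, 0.28 in size, was the widest of the 73 probe sets of the family above the filter.

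**Figure D4:**
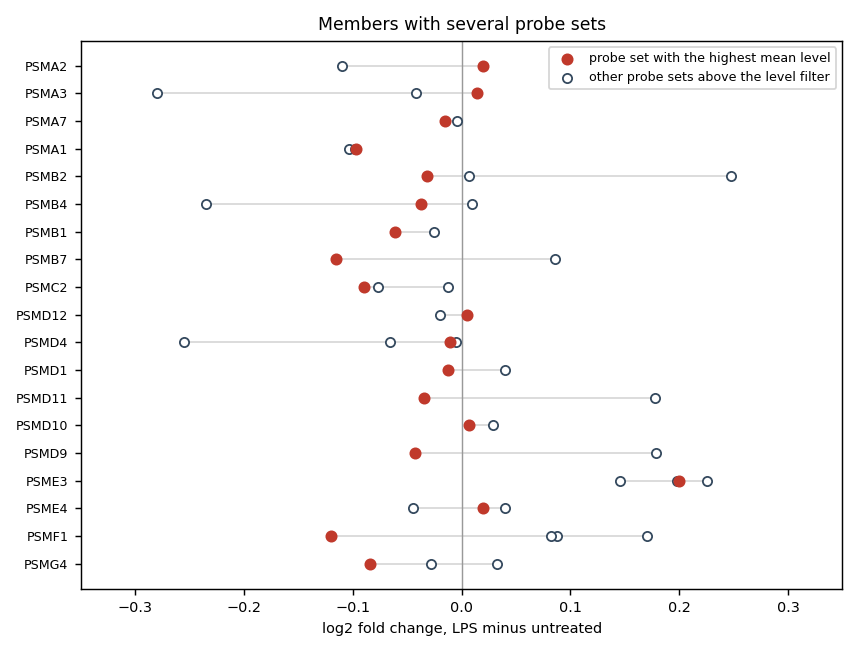
Log2 fold change, LPS minus untreated, of every probe set above the level filter in the 19 proteasome genes that have several; filled circles are the probe sets with the highest mean level, open circles the others. The 4 probe sets of PSME3 lie together between 0.15 and 0.23, whereas those of PSMF1, PSMB2 and PSMB7 lie on both sides of 0.

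Genes that work with the proteasome were read out of the same fit. Of 19 partners and shuttle factors tested, 0 passed the limma threshold in either direction. Their median was -0.03, and 0 higher and 3 lower ones had an unadjusted p under 0.05 (background 3.72% and 7.91% of all genes). The 3 were ECPAS, a scaffold that binds core and regulatory particle (9.74 and 9.77 on the LPS arrays against 9.96 and 10.07 on the untreated arrays, difference -0.26), AKIRIN1, a relative of the proteasome import factor AKIRIN2 (difference -0.20), and UBQLN2, a ubiquitin shuttle (difference -0.15). The assembly factor POMP differed by 0.04 and the ubiquitin receptor ADRM1 by 0.08. Of the ubiquitin genes and activating enzymes UBB, UBA1 and UBA6, 0 reached an unadjusted p under 0.05.

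Transcriptional regulators of the proteasome genes gave 0 of 9 past the limma threshold, and 1 higher and 1 lower gene had an unadjusted p under 0.05 (background 3.72% and 7.91%). NFE2L1, which induces proteasome genes when the proteasome is inhibited, had 10.85 and 10.86 on the LPS arrays against 10.81 and 10.77 on the untreated arrays, without overlap but with a difference of 0.06 (interval -0.08 to 0.20). NFE2L2, the oxidative stress factor that binds the same promoter core, had 12.15 and 12.17 on the LPS arrays against 12.37 and 12.25 on the untreated arrays (difference -0.15, limma adjusted p = 0.393). MAFF, a small partner of both, had 8.27 and 8.29 on the LPS arrays against 8.16 and 7.93 on the untreated arrays (difference 0.24, limma adjusted p = 0.414).

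Among the regulators of the immunosubunits and the peptide loading genes, 0 of 13 passed in limma, and 0 higher and 2 lower genes had an unadjusted p under 0.05 (background 3.72% and 7.91%). The list's median was 0.06, and 7 of the 13 had both LPS arrays above both untreated arrays (background 19.7%) and 3 had them below (background 25.7%). Among the 7 were the loading chaperone CALR at 0.27, the interferon regulatory factor IRF1 at 0.20 and the class I chain HLA-B at 0.15, with limma adjusted p-values of 0.432, 0.435 and 0.44. CALR had 11.66 and 12.07 on the LPS arrays against 11.56 and 11.62 on the untreated arrays. Among the 3 with both LPS arrays below was the regulator NLRC5 at -0.22 (limma adjusted p = 0.446). The 2 at an unadjusted p under 0.05 were the peptide-trimming ERAP1 (difference -0.28) and the interferon regulatory factor IRF2 (difference -0.18), with limma adjusted p-values of 0.362 and 0.426. TAP1, the peptide transporter gene next to PSMB9, had 9.17 and 9.14 on the LPS arrays against 9.09 and 8.99 on the untreated arrays (difference 0.11, interval -0.07 to 0.30), where PSMB9 differed by 0.03.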

How the data were processed

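The authors' deposited values are log2 levels of 54675 probe sets on 4 Affymetrix arrays, as judged from the values. The submitters' processing notes name MAS5 and RMA without versions, and which of them made the values is not given in the sources used here. With such near-equal distributions a change common to all transcripts cannot be seen, and the number of arrays limits the precision.

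After 62 control probe sets were left out, probe sets with a mean of at least the 30 percentile (6.06) were fitted in R 4.3.3 with limma 3.58.1 (lmFit, eBayes with trend, no replicate block). Each gene took the probe set with the highest mean, and p-values were adjusted by Benjamini-Hochberg over 16252 genes. Tests were two-sided. The procedure was run on simulated data with noise drawn independently for each probe set and array. Those data hold no deviations shared between arrays or probe sets. Other probe sets of a gene came from the same fit with no filter, where p-values were adjusted over all 54613 probe sets. Promoters were RefSeq's, the first window listed per gene.

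Members and gene lists were chosen with earlier results of these data known. Named members were PSMB5 to PSMB10, PSME1 and PSMF1, the highest and lowest of each role, and those with an unadjusted p under 0.05 and separate groups. In related lists, genes at an unadjusted p under 0.05 were named, and POMP, ADRM1, NFE2L1, TAP1, CALR, IRF1, HLA-B and NLRC5 were added after their values were seen. Alternatives were other filters, scalings, variance models and probe set choices, a replicate block, and each array left out.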

Additional observations from a re-analysis of the deposited data

How the results depend on the processing

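No proteasome gene passed in limma under any of the 15 alternative fits or at an adjusted p under 0.1. The number of members at an unadjusted p under 0.05, 3 in the main fit, changed with 1 array left out. With the replicate number as a block it was 6, and after median centring or without the variance trend it was 2. The share of all genes at that p was not taken under the alternatives. Genes past the adjusted threshold were 7 with the block in place of 4 (10 with a variance trend over 1 probe set per gene, chosen after seeing the data). Leaving out 1 array gave members' medians of -0.055 to 0.00077. That median was 0.0051 after quantile normalization, 0.0050 after cyclic loess and -0.046 after median centring. The median over all genes in those fits was 0.013, 0.010 and -0.019, in that order. Same-numbered arrays deviated together (r = 0.21 across probe sets and 0.40 across the 41 members, which are not independent), and 2 pairs cannot show a pairing. Of 281 values of the 19 named members under the alternatives, 265 kept their direction and 16 turned, all from differences within 0.12 of 0, and the cause was not tested. Median centring gave -0.0018 for PSMB5, -0.0052 for PSMB8 and -0.0077 for PSMD10. PSMD9 was 0.015 after quantile normalization, 0.0033 after cyclic loess and 0.068 as the mean of its probe sets. PSMF1 was 0.055 as the mean of its probe sets, 0.17 without _x_at and _s_at probe sets and 0.00023 without untreated replicate 1. With 1 array left out, PSMB8 lay at -0.069 to 0.087, PSMB9 at -0.041 to 0.098, PSMB10 at -0.16 to -0.07, PSMB5 at -0.030 to 0.055, PSMD10 at -0.11 to 0.13, PSMA5 at -0.017 to 0.065, PSMG3 at -0.025 to 0.094 and PSMF1 at -0.24 to 0.00023. PSME3 stayed at 0.15 to 0.25 and PSMG2 at -0.29 to -0.14. The lone array left in a group was assumed to vary like the other group. Signal over background cannot be judged from these values.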
